A study of Bos taurus with 48 samples.

Results

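The genes described here are the ciliary and axonemal genes on a bovine endometrial microarray, namely 73 probes of 72 genes among 21475 probes of 20362 genes. They were chosen by symbol alone: axonemal dynein chains (DNAH, DNAI, DNAL and DNALI1), tektins (TEKT), intraflagellar transport proteins (IFT), the sperm-associated antigens (SPAG), radial spoke heads (RSPH), Bardet-Biedl proteins (BBS), tetratricopeptide repeat genes (TTC), FOXJ1 and the RFX factors. No radial spoke head gene had a probe that matched. Of the 73 probes, 54 passed the filter on low signal and were tested, among 15643 tested in all. IFT122 was measured by 2 probes and every other gene by 1.

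The endometrium came from 22 lactating Holstein-Friesian dairy cows of mixed New Zealand and North American ancestry, all with synchronised oestrous cycles and all slaughtered on day 17. A grade 1 embryo had been transferred on day 7 to 12 of them, which were pregnant, and the other 10 were cyclic. Each cow gave caruncular tissue, the aglandular sites where the embryo attaches, and intercaruncular tissue, which holds the uterine glands, so there were 44 samples in 4 groups. Single cows are called by the ending of their labels, where Non-Pregnant stands for cyclic. The 12 pregnant cows were divided by embryo size, with 7 large (longer than 20 cm and heavier than 75 mg) and 5 small embryos (shorter than 20 cm and lighter than 40 mg), and also by a fertility label, with 6 fertile and 6 sub-fertile. Of the large embryos 3 were in fertile and 4 in sub-fertile cows, and of the small embryos 3 and 2.

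Each sample, labelled with Cy5, was hybridised against 1 Cy3-labelled RNA pool of all samples, without dye swap. A level below is therefore the log2 ratio of a sample to that pool, with each array centred on its median, and a difference is between means of such ratios. A ratio of 0 is the pool's level, and levels of different genes cannot be set against each other. Between 68.8% and 84.0% of the probes of an array were well above background. The 3 tested interferon-response probes were higher in every pregnant than in every cyclic cow in both tissues when averaged (medians of 1.14 against -2.87 in caruncular and 0.15 against -2.52 in intercaruncular tissue). Of 9 probes for ciliated cell markers, 4 were above background in all 44 samples. Tissue was almost fully tied to slide and scan date: of 12 slides only 2 held both tissues, those of pregnant cow Pregnant_9790 and cyclic cow Non-Pregnant_9786. Pregnancy was largely tied to slide as well. Pregnant and cyclic samples of a tissue shared only slides 7 and 10 in caruncular and slide 2 in intercaruncular tissue. In whole tissue, fewer cells of a type and less RNA per cell cannot be told apart.

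A motile cilium is driven by dynein arms, which slide the outer microtubule doublets of its axoneme past each other, while a central pair and radial spokes control the beat and tektins run along the doublets. Intraflagellar transport carries building blocks into both motile and primary cilia, the BBSome carries membrane proteins, and FOXJ1 switches on the motile cilium genes in multiciliated cells. In the uterus such cells lie among the secretory cells of the epithelium. The genes were therefore set in a motile-cilium class (axonemal dyneins, tektins, central pair, TTC12, TTC18, TTC29, SPAG1, SPAG8 and FOXJ1), with 24 probes on the array and 18 tested, and the rest, with 36 tested. TTC and SPAG are names shared by genes of many functions, and the 14 other TTC and 2 other SPAG probes tested were included by name only.

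Among the axonemal genes 9 of 11 dynein probes, 4 of 4 tektin probes and 1 of 3 central pair probes were tested. DNAI2, an outer arm intermediate chain, was well above background in 1 of the 44 samples, and SPAG16 and SPAG17, central pair proteins, in 2 and 3. DNALI1, an inner arm light chain, was above background in 5 intercaruncular samples, all from pregnant cows, and in no caruncular one. Its intercaruncular level in pregnant cows was at least 1.38-fold that of caruncular tissue, as a bound without a test. RFX3, a ciliogenic factor, was above background in no sample. The 19 probes that did not pass were not tested. DNAI1, an outer arm intermediate chain, was the 1 motile-cilium gene called in pregnancy as well as between tissues, and its 60-base probe, 5′ to 3′, is shown for that reason.
DNAI1 probe: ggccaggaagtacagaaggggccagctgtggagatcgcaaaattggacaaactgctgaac

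Many motile-cilium genes were lower in caruncular than in intercaruncular tissue, in cyclic and in pregnant cows. The threshold for a call was a difference of 1.5-fold or more together with an adjusted p below 0.05. In cyclic cows 9 of 54 member probes were called (limma, Benjamini-Hochberg adjusted), against 13% of all tested probes. Of these 8 were lower in caruncular tissue, where 5.72% of all probes were, and all 8 were motile-cilium genes. The 1 higher was IFT80, where 7.29% of all probes were higher. In pregnant cows 15 of 54 were called, against 17.7% of all probes, with 14 lower (8.31% of all probes) and 1 higher (9.4%), again IFT80. Of the 14 lower, 13 were motile-cilium genes, and TTC3 was the other.

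The median tissue difference of the 18 motile-cilium probes was -0.70 in cyclic and -1.12 in pregnant cows, and that of the 36 others 0.03 and -0.01. Caruncular means were below intercaruncular means for 17 of 18 motile-cilium probes in cyclic and 18 of 18 in pregnant cows, DNAH11 being the exception in cyclic cows (0.22). Averaged over the 18 probes, caruncular tissue was below intercaruncular tissue in the same cow in 12 of 12 pregnant and 8 of 10 cyclic cows. The 2 exceptions were cyclic cows Non-Pregnant_1940 (0.06) and Non-Pregnant_9960 (0.13), which had the lowest intercaruncular means of the cyclic cows.

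**Figure D1:**
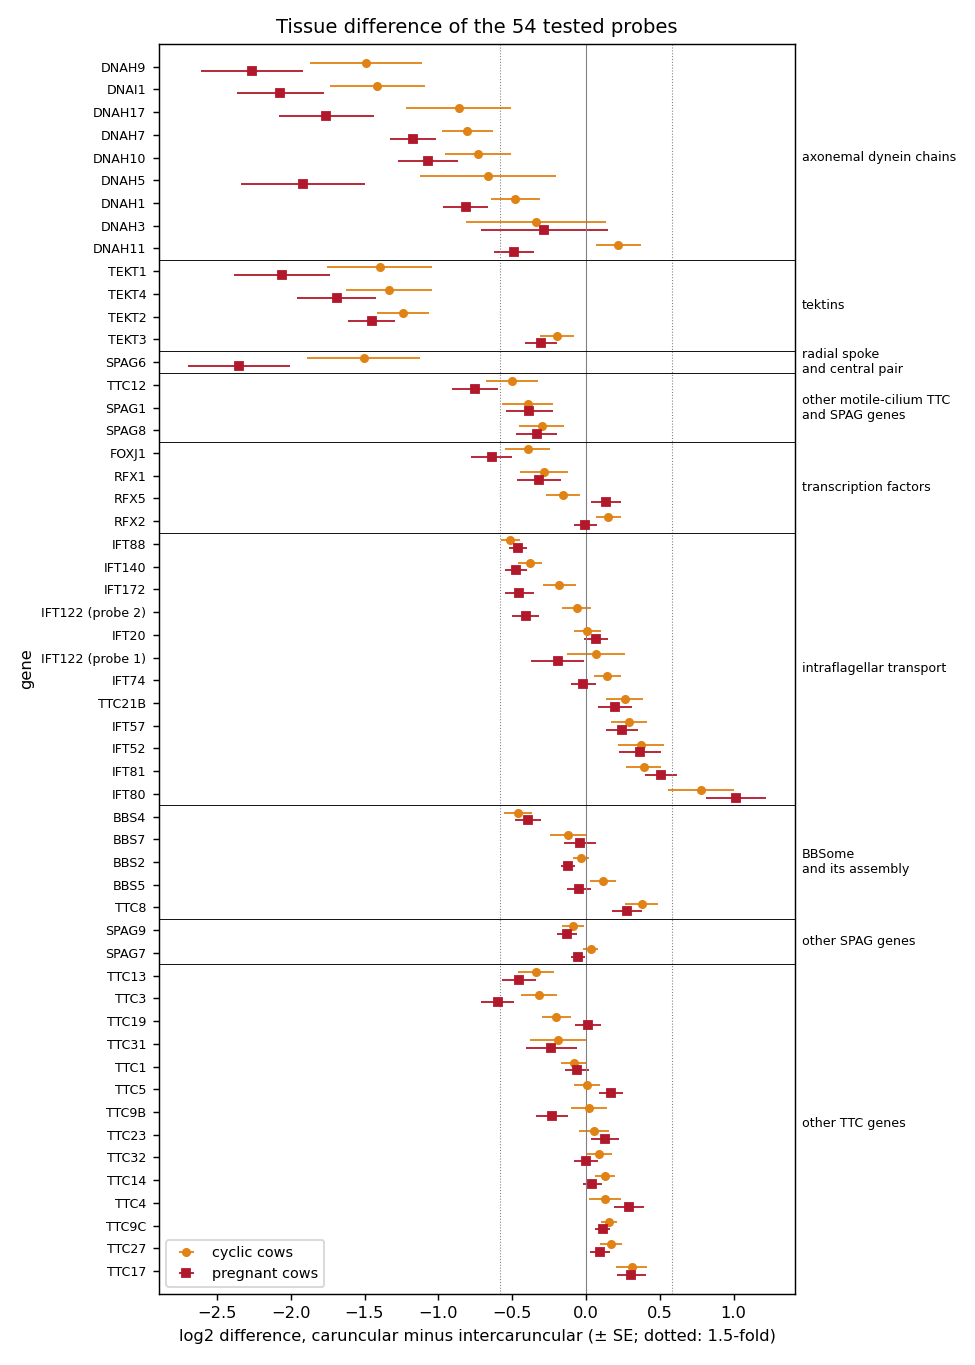
Difference between caruncular and intercaruncular endometrium (log2, horizontal axis, with SE) for each of the 54 tested probes, grouped by role, in cyclic cows (circles, n = 10) and pregnant cows (squares, n = 12). Most dynein, tektin and SPAG6 values lie left of the dotted line at 1.5-fold, while IFT80 lies right of it.

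SPAG6, a protein of the central pair, showed the largest difference among the probes called. Its caruncular level in cyclic cows ran from -3.62 to -0.19 with a median of -1.40, and in pregnant cows from -4.84 to -0.62 with a median of -1.96. Its intercaruncular level ran from -1.22 to 1.34 (median 0.11) in cyclic and from -0.84 to 0.58 (median 0.13) in pregnant cows. The tissues overlapped in both states, but in pregnant cows 11 of 12 caruncular samples lay below every intercaruncular one. The difference was -1.51 ± 0.38 (SE; adjusted p = 0.00188, limma) in cyclic and -2.35 ± 0.35 (adjusted p = 8.8e-07) in pregnant cows, that is 2.84-fold and 5.09-fold lower.

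Among the outer arm dynein chains, DNAH9 had a caruncular median of -1.64 (from -3.75 to -0.34) in cyclic and -2.16 (from -3.84 to -0.81) in pregnant cows. Its intercaruncular median was 0.07 (from -1.79 to 1.42) in cyclic and 0.13 (from -0.73 to 0.55) in pregnant cows. The tissues overlapped in cyclic cows and were fully separate in pregnant cows, where the difference was -2.26 ± 0.35 (adjusted p = 1.52e-06, limma). In cyclic cows it was -1.49 ± 0.38 (adjusted p = 0.00206).

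DNAI1 had caruncular medians of -0.86 (from -2.42 to -0.08) in cyclic and -1.81 (from -3.08 to -0.48) in pregnant cows. Its intercaruncular medians were 0.52 (from -0.98 to 1.87) and 0.31 (from -0.59 to 0.82). The difference was -1.41 ± 0.32 (adjusted p = 0.000719, limma) in cyclic and -2.07 ± 0.30 (adjusted p = 4.75e-07) in pregnant cows. Only 5 of 12 caruncular samples of pregnant cows measured it above background, against 9 of 10 of cyclic cows and every intercaruncular sample, so 7 of these 12 values were not well above background. DNAH5, an outer arm heavy chain, differed by -1.92 ± 0.42 in pregnant cows (adjusted p = 0.000274) and by -0.66 ± 0.46 in cyclic cows (adjusted p = 0.265), with 7 of 12 caruncular samples of pregnant cows above background. DNAH17, of the same arm, above background in 8 of those 12, differed by -1.76 ± 0.32 in pregnant cows (adjusted p = 2.45e-05). In cyclic cows its difference of -0.86 ± 0.35 missed the threshold (adjusted p = 0.0513), and it passed with cow as a fixed replicate block (adjusted p = 0.00552).

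Among the inner arm heavy chains, DNAH7 was lower in caruncular tissue in every cow of both states, by -0.80 ± 0.17 in cyclic (adjusted p = 0.000343, limma) and -1.17 ± 0.16 in pregnant cows (adjusted p = 1.69e-07). DNAH10 differed by -0.73 ± 0.22 (adjusted p = 0.00889) and -1.07 ± 0.20 (adjusted p = 4.26e-05). DNAH1 was called in pregnant cows (-0.81 ± 0.15). DNAH3, another inner arm chain, and the DNAH11 probe, which the array annotates under a second gene name, were called in neither state.

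Of the tektins, TEKT1, TEKT2 and TEKT4 were lower in caruncular tissue in both states and TEKT3 was called in neither. TEKT2, whose product lies along the doublets, was separated fully between tissues in cyclic cows. Its caruncular level ran from -0.98 to -0.05 (median -0.70) in cyclic cows, wholly below the intercaruncular range of -0.01 to 1.33 (median 0.57). The difference was -1.24 ± 0.18 in cyclic cows (adjusted p = 1.94e-06, limma) and -1.45 ± 0.16 in pregnant cows (adjusted p = 7.52e-09), where 11 of 12 caruncular samples lay below every intercaruncular one. TEKT1 differed by -1.40 ± 0.36 and -2.06 ± 0.32, and TEKT4 by -1.33 ± 0.29 and -1.69 ± 0.27. TEKT4 was above background in 5 of 10 caruncular samples of cyclic and 6 of 12 of pregnant cows, and TEKT1 in 9 and 8.

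FOXJ1, the factor upstream of these genes, was also lower in caruncular tissue. Its caruncular medians were -0.33 (from -0.66 to 0.06) in cyclic and -0.51 (from -1.16 to -0.10) in pregnant cows, and its intercaruncular medians 0.10 (from -0.98 to 0.74) and 0.09 (from -0.29 to 0.43). It was above background in 9 of 10 caruncular samples of cyclic and 8 of 12 of pregnant cows. In pregnant cows it was called, at -0.64 ± 0.14 (adjusted p = 0.000264, limma), and in cyclic cows its difference of -0.39 ± 0.15 (adjusted p = 0.0399) was under 1.5-fold. TTC12, which takes part in dynein arm assembly, was called in pregnant cows (-0.75 ± 0.16). RFX2 was near 0 in both states (0.15 and -0.01).

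**Figure D2:**
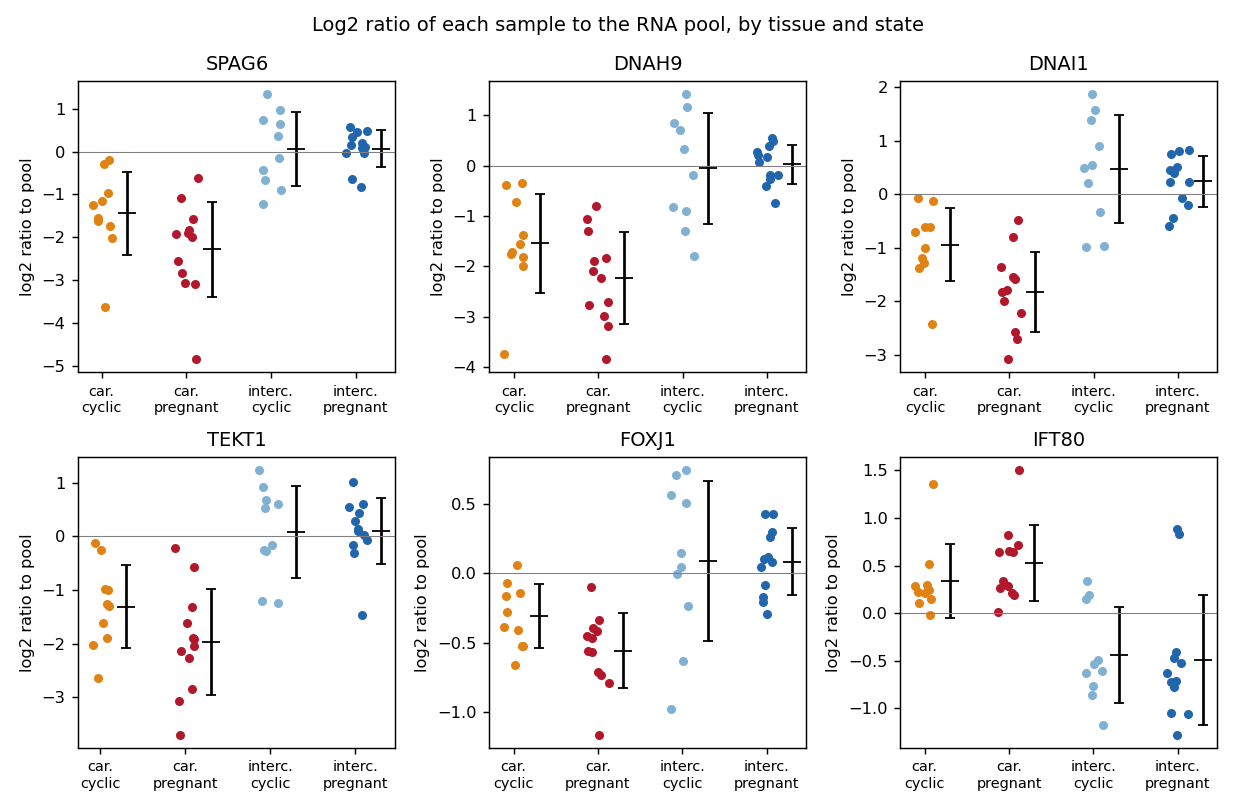
Log2 ratio to the RNA pool (vertical axis) of 6 genes in every sample, 1 point per cow, for caruncular cyclic (n = 10), caruncular pregnant (n = 12), intercaruncular cyclic (n = 10) and intercaruncular pregnant (n = 12) endometrium, with mean and SD beside each group. SPAG6, DNAH9, DNAI1 and TEKT1 are lowest in caruncular tissue of pregnant cows, and IFT80 is above the pool in nearly every caruncular sample and below it in most intercaruncular ones.

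The transport genes did not share this direction. Of 12 intraflagellar transport probes only IFT80 was called, with a median difference over the 12 of 0.11 in cyclic and 0.03 in pregnant cows. IFT88, a core protein of the anterograde complex, was lower in caruncular tissue in every cow, by a small amount (-0.51 ± 0.06 in cyclic, adjusted p = 5.21e-07, limma, and -0.46 ± 0.06 in pregnant cows, adjusted p = 9.03e-08), which is under 1.5-fold. IFT140, of the retrograde complex, differed by -0.38 and -0.48, and IFT172 by -0.18 and -0.45. Of 5 BBSome probes none was called, and BBS4 differed by -0.46 in cyclic and -0.39 in pregnant cows, under 1.5-fold.

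IFT80, of the anterograde complex, had caruncular medians of 0.23 (from -0.02 to 1.36) in cyclic and 0.49 (from 0.02 to 1.51) in pregnant cows, and intercaruncular medians of -0.57 (from -1.18 to 0.34) and -0.67 (from -1.28 to 0.89). The difference was 0.78 ± 0.22 (adjusted p = 0.0056, limma) in cyclic and 1.02 ± 0.20 (adjusted p = 7.97e-05) in pregnant cows. It was higher in caruncular tissue in 9 of 10 and 11 of 12 cows, and the exceptions were the 2 cows with both tissues on 1 slide, Non-Pregnant_9786 (-0.04) and Pregnant_9790 (-0.06). IFT81, of the same complex, had -0.25 and -0.26 in those cows against medians of 0.45 in cyclic and 0.58 in pregnant cows.

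The motile-cilium genes kept their direction on those slides. In cow Non-Pregnant_9786 the caruncular minus intercaruncular value was -3.20 for SPAG6, -2.46 for DNAH9, -2.47 for TEKT1 and -1.44 for DNAI1, and in cow Pregnant_9790 -1.999, -1.97, -1.83 and -1.48. Of the 18 motile-cilium probes 12 were above background in caruncular tissue of cow Non-Pregnant_9786, TEKT1 and DNAI1 not among them. In cow Pregnant_9790 all 18 were. The caruncular sample of cow Non-Pregnant_9786 also stood far below the other cyclic cows for SPAG6 (-3.62, next -2.01) and DNAH9 (-3.75, next -1.99). Over the probes called, 8 of 9 in cow Non-Pregnant_9786 and 14 of 15 in cow Pregnant_9790 had the direction of the whole set. IFT80 was the exception in each, and both cows are part of that set. With slide as a fixed block over all arrays and cow as a random block, 3 of the 9 calls remained in cyclic cows (SPAG6, TEKT1 and TEKT2), none of the 15 in pregnant cows, and IFT80 turned to -0.18 and -0.03. Slide and scan date cannot otherwise be told apart from tissue. Without the 4 samples of those cows, an alternative chosen after seeing the data, all 9 and all 15 were still called. No slide then held both tissues, so that fit cannot separate tissue from slide or scan date.

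Other cell markers moved with tissue too. Of 9 tested epithelial probes (9 of 12 listed genes were on the array), 3 were lower in caruncular tissue in cyclic cows, and 5 were lower and 1 higher in pregnant cows. Their mean level ran from -1.34 to -0.04 in caruncular and from -0.77 to 0.02 in intercaruncular samples of cyclic cows, and from -1.14 to 0.27 and -0.30 to 0.46 in pregnant cows. Both tested gland probes were lower in pregnant cows and 1 in cyclic cows. Of 11 stromal probes 5 were higher in caruncular tissue in cyclic and 9 in pregnant cows, with mean levels from 0.18 to 1.02 against -0.16 to 0.44 and from -0.07 to 1.204 against -0.59 to 0.36. The part of these in the motile-cilium difference was not tested.

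Motile-cilium genes that the symbol rule did not match showed the same direction. Of 53 such genes listed with earlier results of these data known, 31 were on the array and 25 tested. In cyclic cows 15 were lower and 1 higher in caruncular tissue (median -0.70), and in pregnant cows 21 lower and 1 higher (median -1.19). Of 26 tested probes for other transport and primary cilium genes, 1 was higher and 1 lower in cyclic cows (median 0.10), and 3 higher and 1 lower in pregnant cows (median 0.12).

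Pregnancy was compared next, and few members passed both the 1.5-fold and the adjusted p threshold. In caruncular tissue, of 54 member probes 3 were called, against 10.2% of all tested probes. DNAI1 fell, RFX5 rose and TTC3 fell. With an adjusted p alone 15 of 54 passed, 7 higher and 8 lower, where 25.4% of all probes passed.

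DNAI1 was lower in pregnant cows, at the levels given above, by a log2 difference of -0.89 ± 0.30 (adjusted p = 0.0314, limma). Of the 12 pregnant cows 10 lay below the cyclic mean and 3 below every cyclic cow. RFX5, which binds the promoters of MHC class II genes and is no gene of the axoneme, had medians of -0.27 (from -0.58 to 0.04) in cyclic and 0.49 (from -0.14 to 0.82) in pregnant cows. It rose by 0.63 ± 0.11 (adjusted p = 0.000362), with 9 of 12 pregnant cows above every cyclic cow. TTC3, a ubiquitin ligase, had medians of -0.05 (from -0.17 to 0.60) in cyclic and -0.50 (from -0.83 to 0.13) in pregnant cows. It fell by 0.63 (log2 -0.63 ± 0.12, adjusted p = 0.000665), with 11 of 12 pregnant cows below every cyclic cow.

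The smallest p belonged to IFT140, whose caruncular range of -0.46 to -0.14 in pregnant cows lay wholly below the cyclic range of -0.04 to 0.68. Its change of -0.56 ± 0.07 (adjusted p = 4.42e-06, limma) was just under 1.5-fold. IFT52 (0.57), of the anterograde complex, and TTC4 (0.52), a cochaperone, were higher and also under 1.5-fold. TEKT2 differed by -0.57 ± 0.15 (adjusted p = 0.0066).

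The motile-cilium class had a median pregnancy change of -0.46 in caruncular and 0.04 in intercaruncular tissue. In caruncular tissue SPAG6 differed by -0.84 ± 0.43 (adjusted p = 0.15, limma), DNAH9 by -0.69 ± 0.38 (adjusted p = 0.193), DNAH5 by -0.997 ± 0.52 (adjusted p = 0.162), TEKT1 by -0.66 ± 0.36 (adjusted p = 0.192) and FOXJ1 by -0.25 ± 0.11 (adjusted p = 0.0919). The spread between cows was of the size of these differences. IFT88 (-0.04), IFT172 (-0.22), BBS4 (0.12) and RFX2 (-0.09) did not pass either. Of 25 tested other motile-cilium probes 4 were lower and none higher (median -0.53).

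The count depended on 2 cows, whose 4 samples are those of the third scan date. Leaving them out was chosen after seeing the data, and the share of all probes called in that fit is not given here. Cow Non-Pregnant_9786 had the lowest caruncular level of the cyclic cows for DNAH5 (-3.79, next -1.59) and SPAG6 (-3.62, next -2.01). Without the 4 samples of cows Non-Pregnant_9786 and Pregnant_9790, 7 member probes were called, with DNAH5 (-1.39, adjusted p = 0.0329), SPAG6 (-1.12, adjusted p = 0.0431), 1 probe of IFT122 (-0.59, adjusted p = 0.000509) and IFT52 (0.65, adjusted p = 0.000417) added to DNAI1, RFX5 and TTC3 (limma). On slide 7 (3 pregnant and 1 cyclic sample) the 3 had the same direction, but were small for DNAI1 (-0.10) and TTC3 (-0.11), with 0.93 for RFX5. Slide 10 (2 pregnant arrays and 1 cyclic array, repeat arrays among them) gave -1.23 for DNAI1, 0.52 for RFX5 and -0.46 for TTC3. All these arrays are part of the main fit, with 1 cyclic array per slide, so they are no separate test of the calls. The other motile-cilium genes named here did not keep 1 direction: on slide 7 DNAH5 (0.36), SPAG6 (0.28), DNAH9 (0.30), TEKT1 (0.64) and FOXJ1 (0.17) had higher means in pregnant cows, and on slide 10 lower ones (-1.78, -1.22, -1.21, -1.14 and -0.57). With slide as a fixed block the comparison rested on slide 7 and its 1 cyclic cow. That fit gave the slide 7 values of the 3 again and cannot test them. The call of DNAI1 was lost with slide as a random block (-0.72, adjusted p = 0.171), with slide as a fixed block over all arrays (-0.97, adjusted p = 0.177) and, at under 1.5-fold, with another background correction and loess (-0.53, adjusted p = 0.0155). That of TTC3 was lost with slide as a fixed block over all arrays (-0.48, adjusted p = 0.0976). Of 5 smooth muscle probes 4 were lower in pregnant cows in each tissue, with mean caruncular levels from -1.57 to 0.42 against -0.43 to 1.12, and of 9 epithelial probes 2 were higher and 1 lower in caruncular tissue. Their part in these changes was not tested.

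In intercaruncular tissue none of 54 member probes was called, against 7.39% of all tested probes. At an unadjusted p under 0.05 there were 13, where 34% of all probes had one, and the t-test of the methods called 0 too. With an adjusted p alone 6 passed, 4 higher and 2 lower, where 19.4% of all probes passed. The smallest p was again that of IFT140 (-0.46 ± 0.09, adjusted p = 0.00129, limma), with 12 of 12 pregnant cows below the cyclic mean. DNAI1 differed by -0.23, DNAH9 by 0.08, DNAH5 by 0.26, DNAH10 by -0.18, TEKT1 by 0.01 and TEKT2 by -0.36 (all log2), and none passed. SPAG6 (adjusted p = 0.999) and FOXJ1 (adjusted p = 0.994) were closest to 0. IFT88 (-0.09), IFT172 (0.05), BBS4 (0.05), RFX2 (0.07) and RFX5 (0.33, adjusted p = 0.0261) were under 1.5-fold. Without the 4 samples of cows Non-Pregnant_9786 and Pregnant_9790, an alternative chosen after seeing the data, IFT52 was called (0.69, adjusted p = 0.00319, limma). The share of all probes called in that fit is not given here. In this tissue pregnant and cyclic samples shared slide 2 alone, with 3 pregnant and 1 cyclic sample. Pregnancy and slide cannot otherwise be told apart here.

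**Figure D3:**
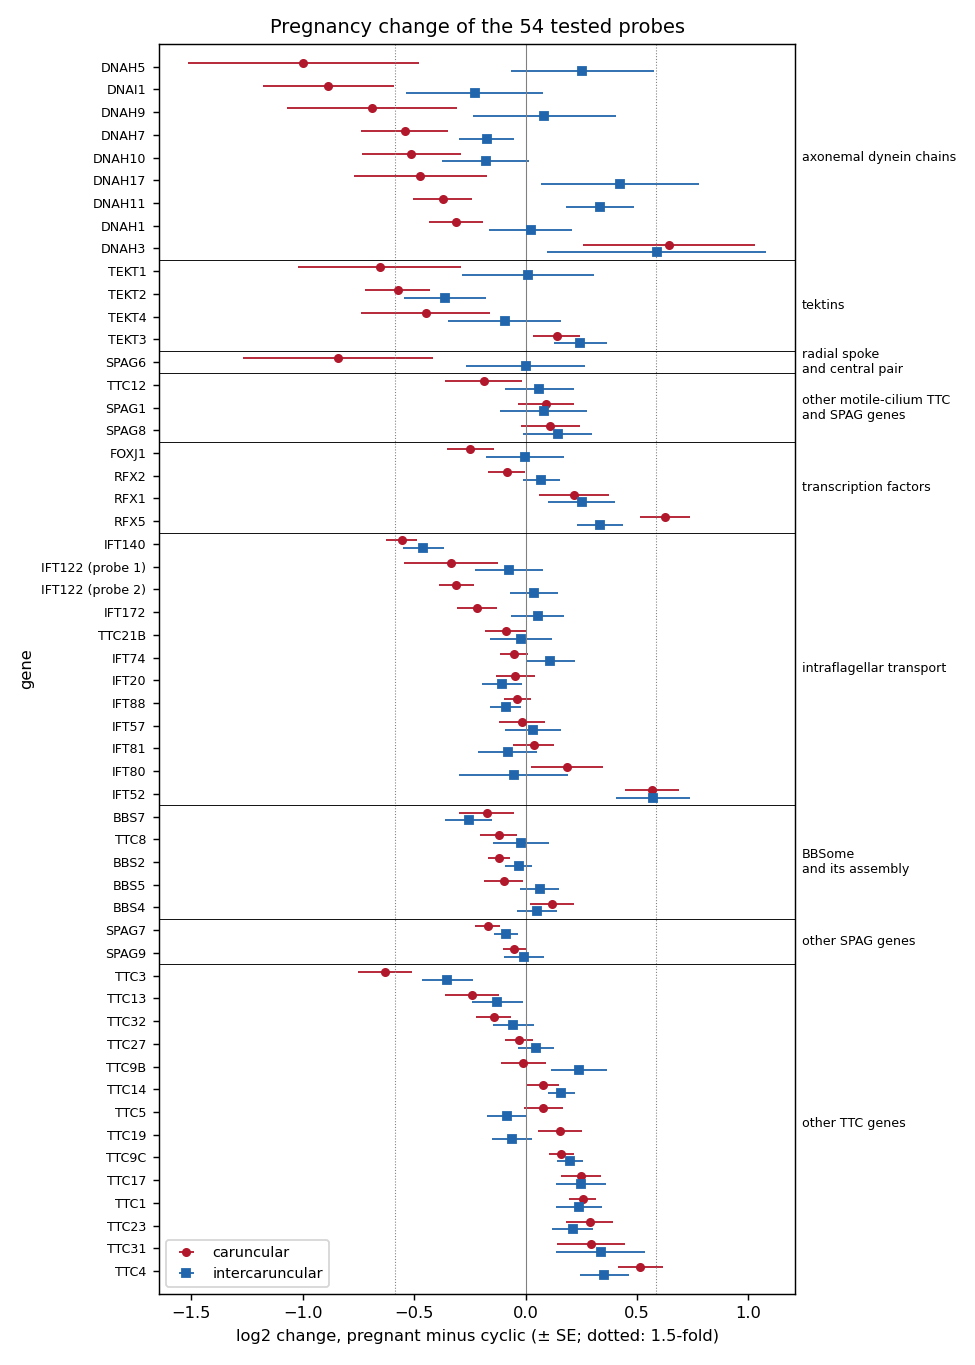
Change from cyclic to pregnant cows (log2, horizontal axis, with SE) for each of the 54 tested probes, grouped by role, in caruncular (circles) and intercaruncular endometrium (squares), 12 pregnant against 10 cyclic cows. DNAI1, RFX5 and TTC3 are past 1.5-fold (dotted) and the test in caruncular tissue, and none in intercaruncular tissue.

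Whether pregnancy differed between the tissues was tested directly, as an interaction. None of 54 member probes passed, against 0.0511% of all tested probes, and 2 had an unadjusted p under 0.05, as had 7.22% of all probes. DNAH11, an outer arm heavy chain, had the smallest p: its pregnancy change was -0.37 in caruncular and 0.33 in intercaruncular tissue, a difference of -0.71 ± 0.20 (adjusted p = 0.252, limma). With cow as a fixed replicate block it passed (adjusted p = 0.0495), and with cow as a random replicate block so did it (adjusted p = 0.0119) and 1 probe of IFT122 (-0.35, adjusted p = 0.0411). SPAG6 (-0.84), DNAH5 (-1.25), DNAI1 (-0.66) and DNAH9 (-0.77) did not pass in any of the 3 fits. Of 25 tested other motile-cilium probes 1 passed without a block, its pregnancy change lower in caruncular tissue (median of the 25 -0.55). Of all 15643 tested probes 8 passed, 2 of them in that direction.

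**Figure D4:**
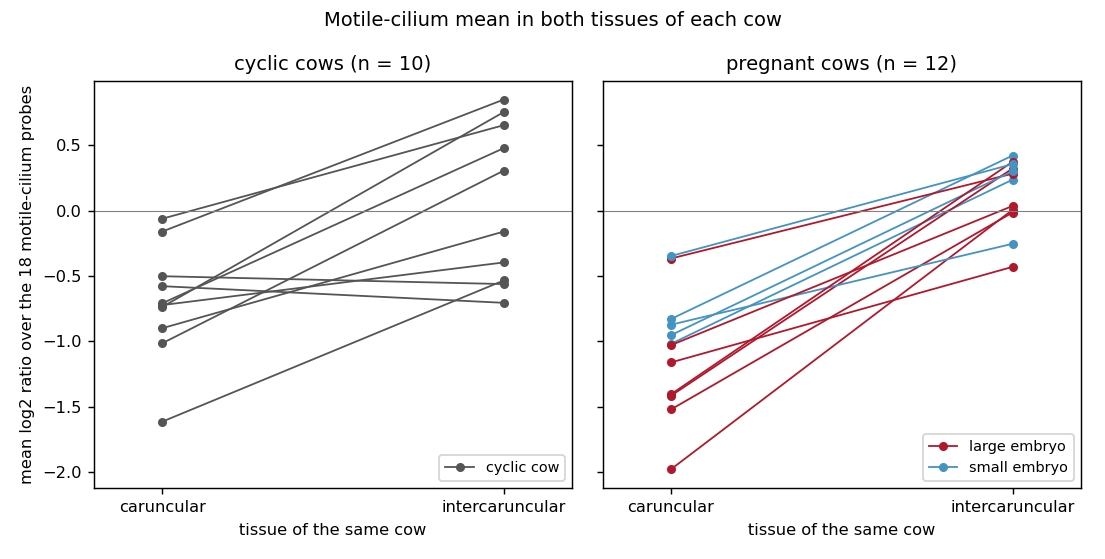
Mean log2 ratio over the 18 tested motile-cilium probes (vertical axis) in caruncular and intercaruncular endometrium of each cow, joined by a line, for 10 cyclic and 12 pregnant cows, the latter coloured by embryo size. The line rises in 8 of 10 cyclic and 12 of 12 pregnant cows, and the 6 lowest caruncular values of pregnant cows are all of cows with large embryos.

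The cows differed widely in these genes, as the averages over the 18 motile-cilium probes show. Caruncular values ran from -1.61 in cow Non-Pregnant_9786 to -0.06 in cyclic cows and from -1.98 to -0.35 in pregnant cows. Intercaruncular values ran from -0.71 to 0.85 (median 0.07) in cyclic and from -0.43 to 0.42 (median 0.26) in pregnant cows. Of 18 motile-cilium probes 17 had a larger SD in cyclic than in pregnant cows in intercaruncular tissue, as did 53.8% of all tested probes. For DNAH9 it was 1.11 against 0.39, for DNAI1 1.007 against 0.48, and for FOXJ1 0.58 against 0.24. Many of the 18 moved together among cows, so they are not separate observations. In caruncular tissue the median SD of the 18 went the other way, with 0.43 in cyclic and 0.61 in pregnant cows. State was largely tied to slide in both tissues.

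Embryo size was examined within the 12 pregnant cows. In caruncular tissue none of 54 member probes passed an adjusted p under 0.05, against 0% of all tested probes, and the t-test of the methods called none. At an unadjusted p under 0.05 there were 7, where 6.94% of all probes had one. All 7 were motile-cilium genes and had lower means with large embryos. DNAH10 had the smallest p: its level ran from -1.91 to -0.34 (median -1.35) with large embryos and from -0.78 to 0.17 (median -0.33) with small ones, a difference of -0.84 ± 0.27 (adjusted p = 0.631, limma). DNAH9 differed by -1.10 ± 0.40 (adjusted p = 0.664), SPAG6 by -1.18 ± 0.51 (adjusted p = 0.713), DNAH5 by -1.49 ± 0.61 (adjusted p = 0.69) and TEKT2 by -0.44 ± 0.18 (adjusted p = 0.69). The 6 lowest caruncular averages of the class were all of cows with large embryos (from -1.98 in cow Pregnant_3805 to -1.03 in cow Pregnant_9790), while that of cow Pregnant_3803, also with a large embryo, was -0.37, close to the highest of all (-0.35). In 5 of the 6, all but cow Pregnant_9790, 12 to 14 of the 18 probes were above background, against 16 to 18 in the cows with small embryos and 18 in cows Pregnant_9790 and Pregnant_3803. None of the member differences passed after adjustment over all tested probes, and the average of the class was not tested.

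In intercaruncular tissue TTC4 passed, 1 of 54 member probes against 3.41% of all tested probes. Its level ran from 0.17 to 0.40 (median 0.25) with large embryos and from -0.33 to 0.20 (median -0.28) with small ones, overlapping through cow Pregnant_3956 alone. It was higher with large embryos by 0.45 ± 0.10 (adjusted p = 0.0357, limma). Leaving out 1 cow ended the call for 10 of the 12 cows, with adjusted p from 0.00825 to 0.103 and the difference from 0.41 to 0.54. The exceptions were cows Pregnant_3956 and Pregnant_9790, without either of which RFX5 passed as well. DNAH10 (-0.32), IFT172 (-0.28), SPAG6 (-0.10) and FOXJ1 (0.02) did not pass.

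By fertility label none of 54 member probes passed in caruncular tissue, against 0.00639% of all tested probes, and none in intercaruncular tissue, against 0.0511%. At an unadjusted p under 0.05 there were 4 and 12, where 13.4% and 13.5% of all probes had one, and the t-test of the methods called none in either. BBS5, a subunit of the BBSome, had the smallest p in caruncular tissue (0.35 ± 0.09 higher in fertile cows, adjusted p = 0.276, limma). BBS4, another subunit, had the smallest in intercaruncular tissue. Its level ran from 0.06 to 0.32 in fertile and from -0.40 to 0.03 in sub-fertile cows, and differed by 0.30 ± 0.09 (adjusted p = 0.202). In caruncular tissue BBS4 differed by 0.36 ± 0.11 (adjusted p = 0.285). TEKT1 differed by 0.78 ± 0.26 in intercaruncular tissue (adjusted p = 0.238), and SPAG6, DNAI1 and FOXJ1 by 0.42, 0.37 and -0.15. The label was largely tied to slide. By the first array of each sample, fertile and sub-fertile cows shared only slide 6 in caruncular and slide 1 in intercaruncular tissue. Slides 5 and 12 held fertile cows only, so label and slide cannot be told apart for most cows.

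Among cows, the motile-cilium genes moved with FOXJ1 within each tissue. After each value was set against the mean of its state, Pearson's r with FOXJ1 over 22 cows passed an adjusted p under 0.05 (permutation within states, adjusted over all tested probes) for 11 of 53 other member probes in caruncular tissue, against 3.51% of all probes. In intercaruncular tissue it did for 8 of 52, against 1.74%. All 11 and all 8 were among the 17 other motile-cilium probes, and all were positive.

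In caruncular tissue r was 0.89 for DNAH17, 0.88 for SPAG6, 0.85 for DNAH9, 0.85 for DNAI1 and 0.82 for DNAH5, each with a permutation p of 1e-05, the smallest that 100000 draws can give, and an adjusted p of 0.00264. Spearman's rho was 0.89, 0.84, 0.84, 0.83 and 0.78 for these genes, with a permutation p of 1e-05 for the first 4 and 8e-05 for DNAH5. In intercaruncular tissue r was 0.90 for DNAH17, 0.87 for DNAH9, 0.87 for DNAI1, 0.85 for DNAH10 and 0.81 for DNAH5, each with a permutation p of 1e-05 and an adjusted p of 0.00729. Spearman's rho was 0.90, 0.81, 0.81, 0.85 and 0.88, with permutation p from 1e-05 to 3e-05. TEKT1 had an r of 0.81 in caruncular tissue (permutation p = 4e-05, adjusted p = 0.00637) and 0.68 in intercaruncular tissue (permutation p = 0.00138, adjusted p = 0.054).

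TTC12, DNAH11, DNAH3, TEKT3 and SPAG1 passed in neither tissue, with r from 0.03 to 0.23 in caruncular and from 0.18 to 0.58 in intercaruncular tissue. Over the intraflagellar transport probes the median r was 0.02 in caruncular and -0.09 in intercaruncular tissue, and none passed. Without the 2 cows farthest from the FOXJ1 median, 7 members passed in caruncular tissue, where 416 of 15602 tested probes did. In intercaruncular tissue 2 members passed, DNAH17 and DNAH5. So 6 of the 8 intercaruncular calls were lost without cows Non-Pregnant_9786 and Non-Pregnant_9960. Most calls over all probes were lost too, with 13 of 15314 left of 267. Without these cows r was 0.75 for DNAI1 and 0.75 for DNAH9 in intercaruncular tissue. The median r of the 17 other motile-cilium probes was then 0.62. In intercaruncular tissue FOXJ1 was above background in every cow but Non-Pregnant_9960. In caruncular tissue it was so in 9 of 10 cyclic and 8 of 12 pregnant cows. Set against the mean of its slide and state, an alternative chosen after seeing the data, over the 19 cows of each tissue that shared both with another, 5 of 53 members passed in caruncular tissue (DNAH17, DNAH9, DNAI1, SPAG6 and DNAH10, with r from 0.83 to 0.91). Of the 15602 probes tested there 50 passed. In intercaruncular tissue none of 52 members and none of all tested probes passed. There 13 members had an unadjusted permutation p under 0.05, against 10.3% of all probes. The median r of the 17 other motile-cilium probes was 0.78 and 0.76 within slides, against 0.74 and 0.68 over the 22 cows. All values of a tissue share the array type, the labelling and the pool.

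**Figure D5:**
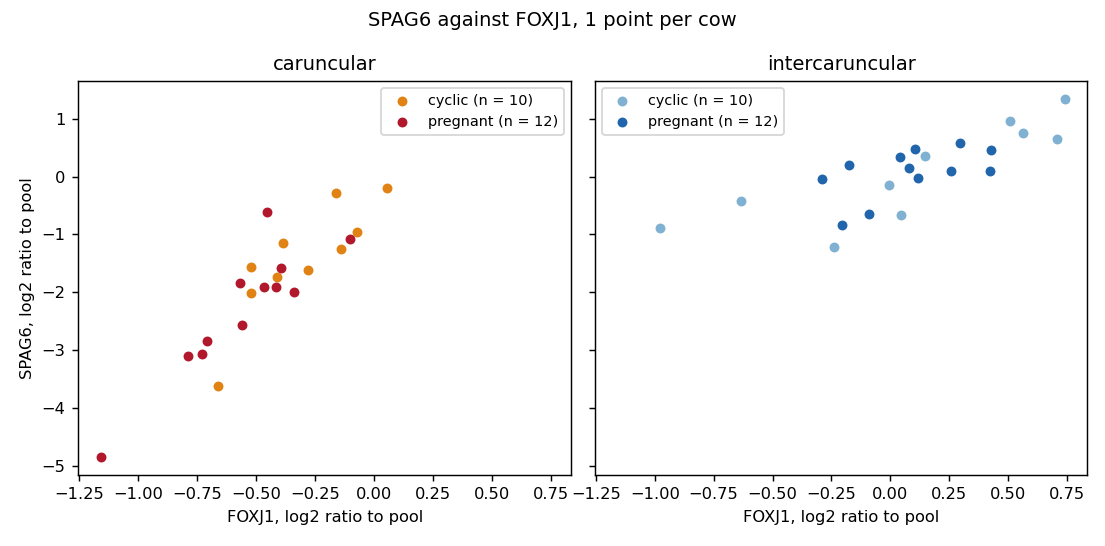
SPAG6 against FOXJ1 (both as log2 ratio to the pool), 1 point per cow, in caruncular and intercaruncular endometrium, with cyclic (n = 10) and pregnant cows (n = 12) in different colours. The points rise together in both tissues, and the lowest caruncular point is a pregnant cow with SPAG6 at -4.84 and FOXJ1 at -1.16.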

How the data were processed

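RNA of both endometrial tissues of 22 cows was hybridised to 2-colour Agilent arrays (48 arrays, of which 4 repeated a sample). The deposited scanner files, made by the authors with Feature Extraction 9.5.3.1 per the file headers, hold processed intensity values and a log10 ratio of Cy5 to Cy3, background-subtracted and dye-normalised by LOWESS within each array. The authors' deposited log2 matrix was an alternative (r = 0.982 to 0.999 with the ratios used here).

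Log2 ratios of sample over pool were averaged over spots of a probe without outlier flags, each array was centred on its median, and repeat arrays were averaged. A probe was tested if 22 or more of the 44 samples showed it above background, as flagged by the scanner software, at 80 units or brighter. Groups came from the labels. Differences were fitted with limma 3.58.1 in R 4.3.3 (lmFit, eBayes) across all 15643 probes, with Benjamini-Hochberg adjustment. A call needed an adjusted p under 0.05 and, for pregnancy and tissue, a 1.5-fold difference. Correlations used 100000 permutations in Python 3.11.15, two-sided, adjusted over all tested probes and not over the members as first planned. The fits were tested on simulated data. Same-cow tissues deviated together (r from 0.128 to 0.860, over 0.1 in 22 of 22 cows), the labels giving the shared cow. Alternatives were other filters, scalings, blocks, covariates, the t-test of the methods and leaving out samples.

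Genes named were those called, those with the smallest p of a comparison, fixed examples of each role and genes with several probes. Others (such as IFT81, IFT140, IFT52, TEKT3 and BBS2) were named after their values were seen. The members and lists were chosen with earlier results of these data known. Precision is limited by the number of arrays. No genome was used, so no positions are given.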

Additional observations from a re-analysis of the deposited data

Results flagged for a closer look

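A sample stood far from its group in 6 of 44 groups examined (13.6%). The 6 are not independent, since 4 come from 1 sample in genes that moved together among cows. Cow Non-Pregnant_9786 accounted for 4, all in caruncular tissue of cyclic cows, where its level was the lowest for SPAG6 (-3.62, next -2.01), DNAH9 (-3.75, next -1.99), DNAH5 (-3.79, next -1.59) and DNAH17 (-2.79, next -1.45). It was also the 1 cyclic cow with both tissues on 1 slide. IFT80 was highest in caruncular tissue of cyclic cow Non-Pregnant_3811 (1.36, next 0.512). TTC4 was highest among the small-embryo cows in intercaruncular tissue of cow Pregnant_3956 (0.195, next -0.187).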

How the results depend on the processing

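Of 361 values of single members under alternatives, 318 kept direction and side of the threshold, 41 kept direction and lost the call, and 2 reversed, both IFT80 between tissues (-0.18 in cyclic and -0.033 in pregnant cows) with slide as a fixed block over all arrays. Of 125 counts 100 stayed within 1.5 times. That slide block left 3 members called between tissues in cyclic and 0 in pregnant cows, and the stricter filter (40 of 44 samples) left 9 in pregnant cows. For pregnancy in caruncular tissue, slide as a fixed block rested on slide 7 with its 1 cyclic cow, which allows no count. Leaving out the 4 samples of the third scan date, chosen after seeing the data, gave 7 in caruncular and 1 in intercaruncular tissue. The shares of all tested probes called in those fits are not given here. With cow as a fixed or random replicate block, 1 and 2 members passed for the interaction. For embryo size in intercaruncular tissue the t-test of the methods called 0, and leaving out 1 cow gave 0 to 2. Without the 2 cows farthest from the FOXJ1 median 7 and 2 correlations passed, and within slide and state, chosen after seeing the data, 5 and 0. Over all tested probes 416 and 13 passed without those cows, and 50 and 0 within slide and state. Other than for fewer probes or samples, the cause was not tested. Values below background limit DNAI1, TEKT4, DNAH5, TEKT1, DNAH17 and FOXJ1 in caruncular tissue. In intercaruncular tissue they limit FOXJ1 and DNAH5 in cow Non-Pregnant_9960.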

Other observations

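BBS2, a subunit of the BBSome, and TTC9C did not overlap between embryo sizes in intercaruncular tissue. With large embryos BBS2 was lower (-0.20 ± 0.07, adjusted p = 0.132, limma) and TTC9C higher (0.13 ± 0.07, adjusted p = 0.286), and neither passed the test. How many of all tested probes did not overlap was not counted, so the separation cannot be called particular to these genes. In this comparison 21.3% of all tested probes had an unadjusted p under 0.05. SPAG1, a factor of dynein arm assembly, was the 1 motile-cilium gene of 18 with a larger SD in pregnant (0.576) than in cyclic cows (0.308) in intercaruncular tissue. The IFT122 probes correlated at r = 0.15 over 44 samples.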
